A study of Mus musculus with 96 samples.

Results

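The chaperones, folding enzymes and stress genes of the endoplasmic reticulum (ER) were followed through translation in the embryonic mouse neural tube. They were chosen by name: Hspa5, Hsp90b1, Calr, Canx, Pdia3, Pdia4, Pdia6, Xbp1, Dnajb9 and Herpud1. These 10 were all present among the 22422 genes with coding counts, and all 10 passed the filter on low counts in each comparison. The counts came from ribosome profiling, in which pieces of mRNA protected by ribosomes from nuclease are sequenced as footprints, and from RNA-seq of poly(A) mRNA.

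Neural tubes were taken at stage E11.5 from wild-type C3HeB embryos and from embryos of genotype C3HeB/Eif3cXs-J/+, which carry 1 mutant allele of Eif3c, a subunit of the translation initiation factor eIF3, in all their cells. Each pool was the dissociated neural tubes of 1 litter, divided so that RNA and footprints came from the same cells. There were 3 pools per genotype and 12 libraries, sequenced in 96 lane samples. The labels do not say what the pool numbers share between genotypes, nor whether the pools of a genotype were independent matings, so the p-values speak of the spread among these pools, which may be technical.

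Proteins that enter the secretory pathway fold in the ER with the help of chaperones that bind unfolded chains, lectins that hold glycoproteins, and disulfide isomerases. When unfolded protein builds up, the sensors IRE1, PERK and ATF6 start the unfolded protein response, which raises the transcription of these helpers. IRE1 cuts a short intron from the Xbp1 mRNA, and the frame after the cut encodes the active transcription factor.

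The coding depth was 7.20 to 13.1 M coding counts (M, 1e6) in RNA and 11.3 to 59.2 M in footprints. Eif3c itself was lower in the mutant, at 474 to 518 CPM (coding counts scaled to a library of 1e6) in wild-type RNA and 290 to 302 in mutant RNA (edgeR log2 difference -0.75 ± 0.06 SE, adjusted p = 0.000615). All 10 neural tube markers were detected, and their summed RNA level was 2719 to 2768 CPM in wild type and 2335 to 2562 in the mutant. The 13 erythroid markers, all detected, summed to 2758 to 3416 CPM in wild-type RNA and to 2873 to 6513 in mutant RNA, where pool 1 was the high one. Mutant pool 1 was also the highest RNA library for the 10 endothelial markers, all detected, at 634 CPM against 380 to 446 in the others. The 12 mesenchymal markers, all detected, gave 613 to 1031 CPM in wild-type RNA and 723 to 1054 in mutant RNA. In footprints mutant pool 1 was again high: erythroid markers reached 14286 CPM there against 8138 to 9923 elsewhere, endothelial ones 828 against 461 to 582, mesenchymal ones 2107 against 1178 to 1446, and the 10 neural crest markers 319 against 205 to 246. In whole tissue, fewer cells of a type and less RNA per cell cannot be told apart, and the part of these cell types in the results was not tested.

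The genes lie on several chromosomes of build mm10. The general chaperones are Hspa5 (chr2:34771970-34777547, plus strand, 655 codons), Hsp90b1 (chr10:86690209-86705509, minus, 802 codons) and the lectins Calr (chr8:84841850-84846934, minus, 416 codons) and Canx (chr11:50293961-50325673, minus, 591 codons). The disulfide isomerases are Pdia3 (chr2:121413775-121438687, plus, 505 codons), Pdia4 (chr6:47796141-47813430, minus, 641 codons) and Pdia6 (chr12:17266545-17284770, plus, 445 codons). The stress genes are Xbp1 (chr11:5520659-5525893, plus), Dnajb9 (chr12:44205559-44210326, minus, 222 codons) and Herpud1 (chr8:94386438-94395377, plus, 391 codons).

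The promoters were read first, because the ER stress response element is the shared DNA feature by which this gene group is known. The classical element, ERSE, is CCAAT, 9 bases of any kind and CCACG, and ERSE-II is ATTGG, 1 base and CCACG. Both were searched on both strands of the RefSeq promoters of build GRCm38.p6, from 250 bases before to 50 bases after each start, where all 10 genes had 1 entry. ERSE was found in 5 of the 10 genes and in 39 of all 32851 promoters of that length (0.119%). ERSE-II was found in Herpud1 and in 12 promoters in all (0.0365%), and none of the 10 holds both motifs. The matches are shown on the gene's strand, with the match in capitals and 5 bases on each side.
Hspa5, chr2:34772020-34772048, plus strand: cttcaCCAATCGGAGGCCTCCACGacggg
Hsp90b1 upstream match, chr10:86705633-86705661, minus strand: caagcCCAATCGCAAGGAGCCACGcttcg
Hsp90b1 downstream match, chr10:86705528-86705556, minus strand: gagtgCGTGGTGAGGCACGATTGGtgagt
Calr, chr8:84847070-84847098, minus strand: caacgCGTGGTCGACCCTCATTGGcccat
Canx, chr11:50325795-50325823, minus strand: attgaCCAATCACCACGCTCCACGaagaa
Pdia6, chr12:17266486-17266514, plus strand: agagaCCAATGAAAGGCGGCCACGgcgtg
Herpud1, ERSE-II, chr8:94386372-94386392, plus strand: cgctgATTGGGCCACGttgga
In Calr and in the downstream match of Hsp90b1 the element reads on the opposite strand, so the capitals show its complement. Relative to the RefSeq start, the match began at base -65 in Hspa5, -98 in Pdia6, -145 in Canx, -162 in Calr and -52 in Herpud1, and at -212 and -107 in Hsp90b1. These letters were not present in the windows of Pdia3, Pdia4, Xbp1 and Dnajb9. The annotated transcript that was counted begins 120 bases before the RefSeq start in Hspa5, so the match lies inside its annotated 5′ untranslated region (UTR). It begins 127 bases before it in Pdia3 and 258 in Dnajb9, so the 250 bases searched for Dnajb9 lie wholly inside the counted transcript, and the bases before that transcript were not searched.

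In Xbp1 the sequence of interest is the short intron that IRE1 removes. A search of the coding sequence for 26 bases that begin after, and end with, CNGCAG found 2 sites, and removal of the bases lengthened the reading frame at 1 of them, in exon 4 of 5. It is shown with 2 bases on each side, the 26 bases in capitals.
Xbp1, chr11:5524280-5524309, plus strand: agCACTCAGACTATGTGCACCTCTGCAGca
With these bases the annotated frame has 267 codons, and without them 371. The longer frame runs over 338 of the 989 bases annotated as 3′ UTR (34.2%). The deposited rows do not divide reads at this site, so the 2 forms of the mRNA were not measured apart here.

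Levels between genes were compared per length, as counts per kilobase of counted coding sequence, scaled like CPM to library size (RPKM). Calr, a calcium-binding lectin chaperone, had the highest RNA level of the 10 in wild type, at 545 ± 8.16 RPKM (SD, n = 3), above 99.4% of the 13406 genes tested. Hsp90b1, the HSP90 of the ER (GRP94), followed at 437 ± 13.4, Pdia3, the disulfide isomerase that works with both lectins, at 433 ± 11.2, and Hspa5, the HSP70 known as BiP, at 420.2 ± 19.2. The pool values of Hsp90b1, Pdia3 and Hspa5 overlapped, so their order is not fixed by these data. Canx, the membrane-bound lectin, was at 358 ± 6.66 RPKM, Pdia6 at 295 ± 8.51 and Pdia4 at 159 ± 9.69. Pdia6 and Pdia4 are further disulfide isomerases, and the latter lay above 94.5% of genes.

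The 3 remaining genes were lower. Xbp1, the transcription factor downstream of IRE1, was at 58.4 ± 8.93 RPKM. Dnajb9, a J-domain cochaperone of BiP, was at 31.7 ± 5.31, and Herpud1, a membrane protein of ER-associated degradation, at 25.4 ± 4.01, above 51.2% of genes. The pool ranges of the last pair overlapped. In footprints the order of the 10 was the same, from Calr at 1326 ± 125 RPKM to Herpud1 at 32.1 ± 1.03, and the ranges of neighbours overlapped for 1 pair, Pdia3 (921 ± 29.3) and Hspa5 (879 ± 67.6).

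**Figure D1:**
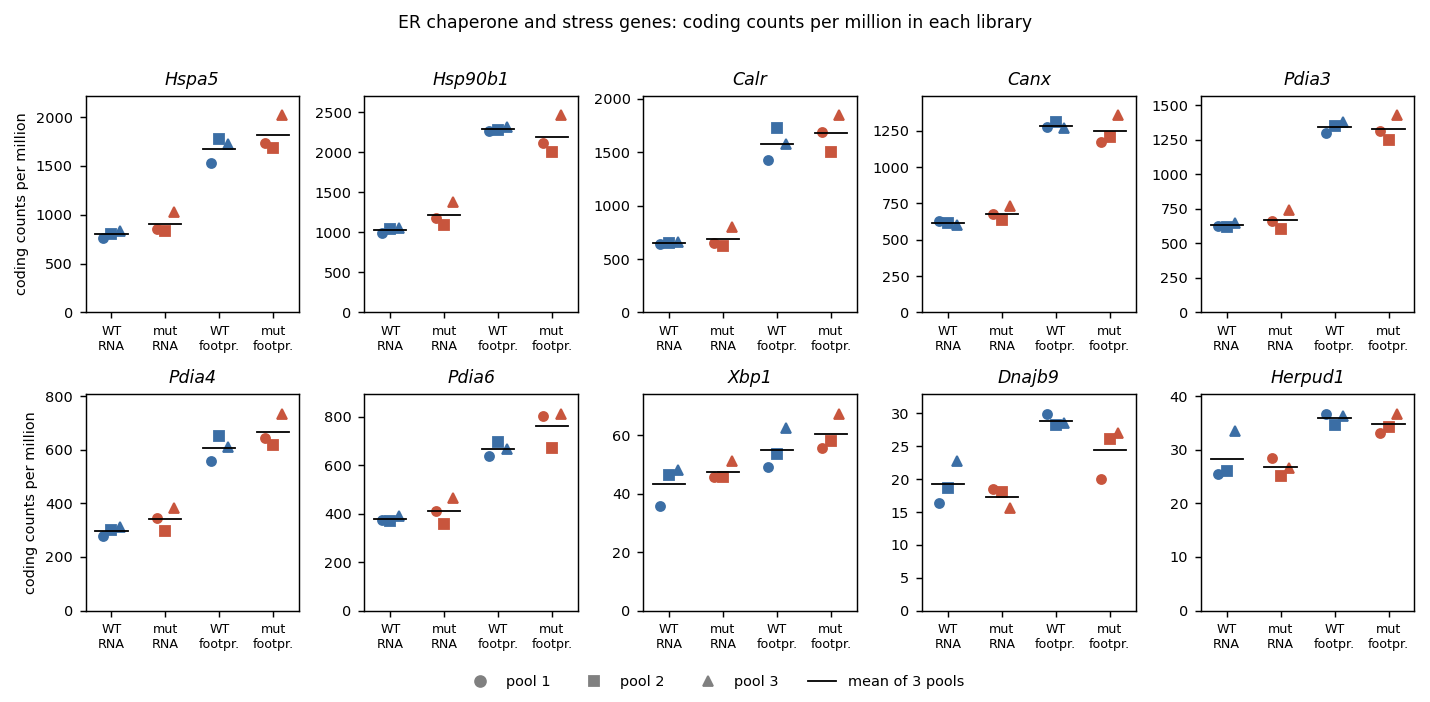
Coding CPM of each gene in the 12 libraries (y axis, from 0), by genotype and assay (x axis); symbols are the 3 pools and lines their means. In each pool the footprint value lies above the RNA value, and the triangle of mutant pool 3 is the highest mutant value in all panels except the RNA of Dnajb9 and Herpud1.

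Together the 10 genes took 0.438% to 0.460% of coding RNA counts in wild type and 0.453% to 0.562% in the mutant. In footprints they came to 0.910% to 0.991% in wild type and 0.905% to 1.08% in the mutant. These are shares of the scaled library sizes, which differ slightly from shares of raw counts. The footprint share was therefore above the RNA share in every pool, and in both assays mutant pool 3 had the largest share and the genotypes overlapped.

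The ratio of footprints to RNA was then compared within wild type. It is relative to the scaling of the libraries, so 0 on the log2 scale marks the bulk of genes and the value is no absolute efficiency. All 10 genes were higher than this bulk at adjusted p under 0.05 (edgeR), where 35.5% of the 13877 genes tested were called higher and 36.3% lower. Their median was 1.14, against 0.01 over all genes tested.

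Calr had the largest ratio of the 10. Its log2 ratio was 1.25, 1.51 and 1.37 in wild-type pools 1, 2 and 3, and the fitted value was 1.38 ± 0.11 (SE), a ratio of 2.60-fold, above 98.8% of genes. Hsp90b1 had 1.28, 1.24 and 1.24, with a fitted value of 1.25 ± 0.09. Pdia3 (1.19 ± 0.08), Canx (1.16 ± 0.07), Hspa5 (1.16 ± 0.10) and Pdia4 (1.13 ± 0.10) lay close together, each above 96.5% to 97.3% of genes. Pdia6 was at 0.92 ± 0.09, above 92.3% of genes. The abundant chaperones thus filled a narrow band of 0.92 to 1.38.

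The stress genes of low level stood lower. Dnajb9 had log2 ratios of 0.93, 0.69 and 0.42 in the 3 pools, a spread wider than that of the chaperones, and a fitted value of 0.69 ± 0.13. Herpud1, at 0.61, 0.50 and 0.21, had a fitted value of 0.45 ± 0.10. Xbp1, at 0.54, 0.30 and 0.47, had 0.44 ± 0.12 (adjusted p = 0.00389, edgeR), above 70.8% of genes.

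**Figure D2:**
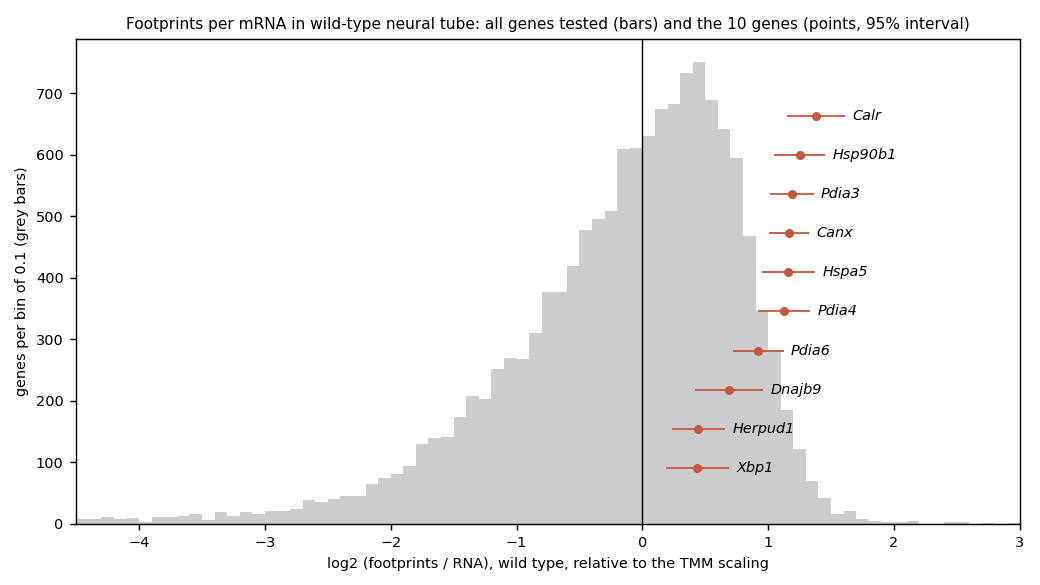
Log2 ratio of footprints to RNA in wild type (x axis): grey bars count all 13877 genes tested per bin of 0.1 (y axis), and red points with bars of the 95% interval mark the 10 genes at arbitrary heights. The 7 chaperones and isomerases lie from 0.92 to 1.38, on the right flank of the distribution, and Dnajb9, Herpud1 and Xbp1 from 0.44 to 0.69.

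The same ratio was read in 10 lists of secretory pathway genes, 140 genes with the 10 above among them, of which 136 were tested. Of these, 99 were called higher and 18 lower, with a median of 0.55, against the 35.5% and 36.3% of all genes. All 10 subunits and partners of the oligosaccharyltransferase, which attaches glycans to entering chains, were called higher, among them Stt3a (1.15 ± 0.07) and Rpn1 (1.02 ± 0.06). Of 21 translocon and signal peptidase genes tested, 14 were called higher, with Ssr2 at 1.41 ± 0.09 and Ssr1 at 1.29 ± 0.07, and 4 lower. Of 21 genes of KDEL receptors and early traffic, 18 were called higher and none lower, and Kdelr2, a receptor that returns escaped chaperones to the ER, had 1.71 ± 0.07, above every one of the 10 genes.

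Among 15 disulfide isomerases and oxidases, 14 were called higher and Txndc11 lower (-1.25 ± 0.08). P4hb, the archetype of the family, was at 0.99 ± 0.07 and the peroxiredoxin Prdx4 at 0.88 ± 0.07. Of 14 genes tested for BiP and its cofactors, with Hspa5 and Dnajb9 among them, 10 were called higher, such as Hyou1 (0.98 ± 0.10) and Manf (0.81 ± 0.13), and 2 lower.

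Sensors and transcription factors of the unfolded protein response were divided, with 5 of 14 tested called higher and 6 lower, near the shares over all genes. Atf4, the transcription factor downstream of PERK, was at -4.30 ± 0.09, Ppp1r15a, which targets the eIF2 phosphatase, at -3.43 ± 0.21, and Ddit3 (CHOP) at -2.42 ± 0.18. Ern1, which encodes IRE1, was at -1.11 ± 0.14 and Creb3 at 0.65 ± 0.08. Xbp1, with 0.44, was on the higher side of that list. In ER-associated degradation, 13 of 20 were called higher and 3 lower; Os9 had 1.02 ± 0.07 and Edem1 -1.78 ± 0.08.

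**Figure D3:**
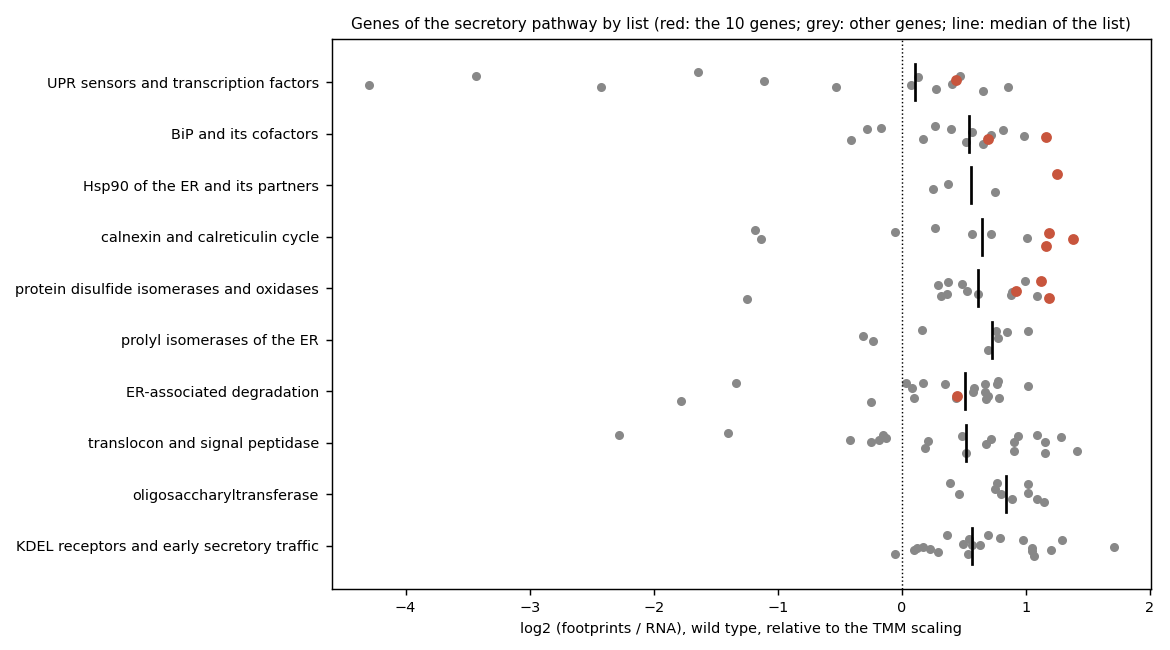
Log2 ratio of footprints to RNA in wild type (x axis) for each tested gene of the 10 secretory pathway lists (y axis); red points are the 10 genes, grey points other genes, and the line is the list's median. Medians run from 0.10 for sensors and transcription factors to 0.84 for the oligosaccharyltransferase, and the list of sensors reaches down to -4.30.

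The mutant was compared with wild type first in RNA. None of the 10 genes passed an adjusted p of 0.05 (edgeR), where 52 of 13406 genes did (0.388%). Their adjusted p lay between 0.173 and 0.796, 2 of them, Hsp90b1 and Pdia4, had an unadjusted p under 0.05, as had 17.5% of all genes, and DESeq2 and limma-voom also called none. The log2 difference was positive in 8 of the 10, with a median of 0.13, against 0.01 over all genes tested and a positive sign in 53.2% of them. This rests in part on mutant pool 3: without it the median was 0.040, and Calr and Pdia3 turned negative. The pools of the genotypes did not overlap in 2 of the 10, Hsp90b1 and Canx, where 22.2% of genes did not overlap.

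Hsp90b1 had the largest RNA difference. Its RNA was at 991, 1038 and 1051 CPM in wild-type pools 1 to 3 and at 1175, 1093 and 1382 CPM in the mutant pools. Every mutant pool lay above every wild-type pool, with pool 3 the highest. The mutant was 1.19-fold wild type (95% interval, 1.04 to 1.35; log2 0.25 ± 0.09, adjusted p = 0.173, edgeR). Without mutant pool 2, where 11.3% of all genes were called, the difference was 0.31 and the adjusted p was 0.0328, and without mutant pool 3 it was 0.14.

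Hspa5 RNA was at 764, 804 and 837 CPM in wild type and at 849, 828 and 1027 in the mutant, where pool 2 fell below the highest wild-type pool. The fold was 1.12 (0.987 to 1.28; adjusted p = 0.337, edgeR), and without mutant pool 3 the log2 difference went from 0.17 to 0.057. Pdia4 was at 277, 301 and 313 CPM against 344, 296 and 382, with the mutant pool 2 inside the wild-type range. Its fold was 1.15 (1.00 to 1.31; log2 0.20, adjusted p = 0.274, edgeR). Without mutant pool 2 the log2 difference was 0.28 at an adjusted p of 0.0270, and without mutant pool 3 it was 0.099 at 0.658 (edgeR).

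Of the 2 lectins, Canx was at 626, 612 and 604 CPM in wild type and at 675, 634 and 731 in the mutant, again with no overlap. Its log2 difference was 0.15 ± 0.07 (adjusted p = 0.296, edgeR). Calr was at 638, 651 and 657 CPM against 647, 623 and 797, so that 1 mutant pool was below and 1 above all wild-type pools (log2 0.09 ± 0.09). Without mutant pool 3 the sign of Calr turned, to -0.04. Pdia3 (0.09 ± 0.08) and Pdia6 (0.12 ± 0.08) overlapped between the genotypes. Xbp1 RNA was at 35.8, 46.6 and 48.0 CPM in wild type and at 45.8, 45.6 and 51.3 in the mutant, where wild-type pool 1 was the low library (0.13 ± 0.11, and 0.0065 without it).

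Dnajb9 and Herpud1 were the 2 with a lower mean in the mutant. Dnajb9 was at 16.4, 18.6 and 22.8 CPM in wild type and at 18.4, 18.0 and 15.6 in the mutant (log2 -0.14 ± 0.13). Herpud1 was at 25.4, 26.1 and 33.5 CPM against 28.4, 25.1 and 26.6 (-0.07 ± 0.12). Both overlapped between the genotypes, and wild-type pool 3 was the highest library of each. Without it Herpud1 was at 0.05 and Dnajb9 at -0.021.

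In footprints, none of the 10 genes passed either, where 34 of 13423 genes did (0.253%). None of the 10 had an unadjusted p under 0.05 in edgeR, against 22.8% of all genes, DESeq2 and limma-voom called none of the 10, and the adjusted p of edgeR lay between 0.228 and 0.929. Of the 10, 5 had a positive difference, and the median was 0.04 against 0.01 over all genes; without mutant pool 3 it was -0.028, and without mutant pool 2 0.090. The pools of the genotypes did not overlap in 1 of the 10, Dnajb9, where 29.2% of genes did not overlap.

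Pdia6 had the largest positive footprint difference. It was at 637, 697 and 669 CPM in wild type and at 804, 670.4 and 814 in the mutant, where pools 1 and 3 were above all wild-type pools and pool 2 was within them. The fold was 1.14 (0.996 to 1.31; log2 0.19 ± 0.09, adjusted p = 0.228, edgeR), and without mutant pool 2, where 17.1% of all genes were called, it was 0.27 on the log2 scale at an adjusted p of 0.0276. Dnajb9 had the largest negative one. Its footprints were at 30.0, 28.3 and 28.5 CPM in wild type and 20.1, 26.04 and 27.1 in the mutant, without overlap (log2 -0.24 ± 0.12, adjusted p = 0.244, edgeR). Mutant pool 1 was the lowest, and without it the difference was -0.125; this is the library with the high blood, vessel and mesenchymal markers, whose part in the result was not tested. The coding GC content of Dnajb9 was 39.7%, the lowest of the 10 with 1.53% of genes below, and with offsets for coding GC content, an alternative chosen after seeing the data, the difference was -0.078. The part of GC content in this difference was not tested.

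Hsp90b1, whose RNA was higher in each mutant pool, had footprints of 2262, 2281 and 2311 CPM in wild type and 2116, 2006 and 2462 in the mutant. The mutant pools lay on both sides of the narrow wild-type range, with a log2 difference of -0.06 ± 0.09. Canx footprints were at 1276, 1310.2 and 1271 CPM against 1174, 1207 and 1356 (-0.05 ± 0.08). Hspa5 was at 1531, 1773 and 1728 CPM against 1736, 1681 and 2019 (0.11 ± 0.09), and the fold interval of 0.936 to 1.25 bounds the difference that these pools allow. Xbp1 footprints were at 49.1, 53.6 and 62.3 CPM against 55.7, 58.0 and 67.4 (0.14 ± 0.11), with overlap. Calr (0.09 ± 0.10), Pdia4 (0.14 ± 0.09), Pdia3 (-0.01 ± 0.07) and Herpud1 (-0.05 ± 0.08) overlapped between the genotypes.

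**Figure D4:**
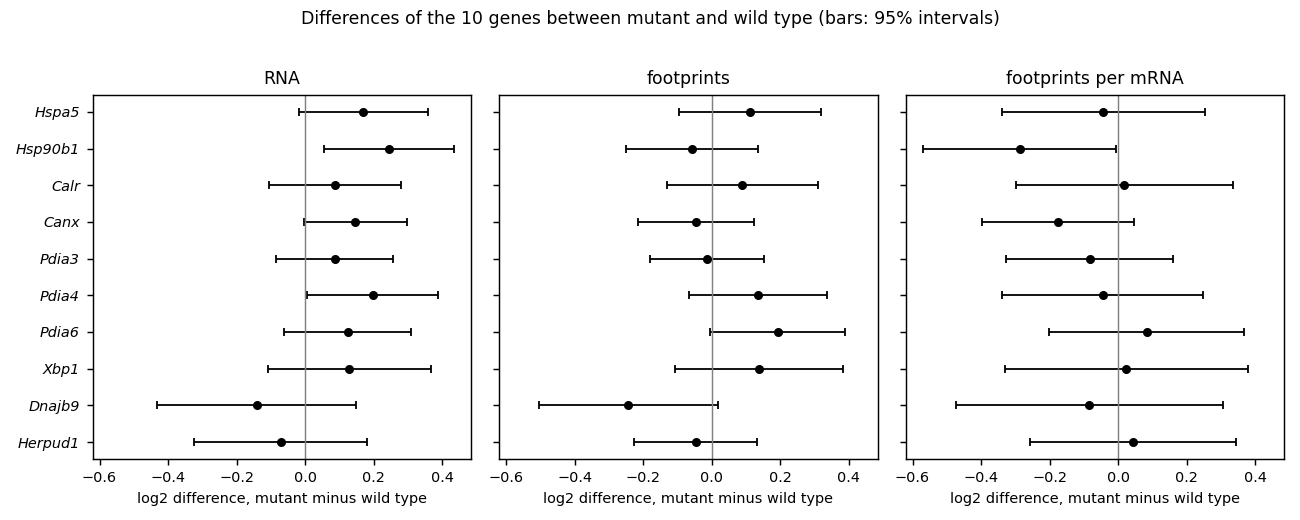
Log2 difference, mutant minus wild type (x axis), of each gene (y axis) in RNA, in footprints and in footprints per mRNA; points are edgeR estimates from 3 pools per genotype and bars 95% intervals. Hsp90b1 is at 0.25 in RNA, -0.06 in footprints and -0.29 in their ratio, and Dnajb9 is the lowest in RNA and in footprints.

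Translational efficiency, the interaction of genotype and assay over the 12 libraries, was called for 0 of 13877 genes (0%) and so for none of the 10, with 1366 genes (9.84%) at an unadjusted p under 0.05, and Hsp90b1 the 1 of the 10 among them. With the pool as a block, which here joins the RNA and footprints of the same cells, 113 genes were called and again none of the 10. DESeq2 called 20 genes and limma-voom 0, none of them among the 10. The adjusted p of the 10 ran from 0.500 to 0.985 in edgeR, 4 of the 10 differences were positive, and their median was -0.04 against 0.02 over all genes.

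Hsp90b1 had log2 ratios of footprints to RNA of 1.28, 1.24 and 1.24 in wild type and of 0.99, 0.97 and 0.93 in the mutant. The ranges did not overlap, and each group was tight. The interaction was -0.29 ± 0.13, a fold of 0.819 (0.674 to 0.996), with an adjusted p of 0.500 (edgeR). This fit has no term for the pool, so its SE does not measure the spread of the ratios within pools. Over 16 alternative fits (edgeR, DESeq2 or limma-voom) Hsp90b1 ranged from -0.31 to 0.081. Its lowest adjusted p among them was 0.0777, so none called it. Its coding sequence is low in GC, 42.9%, with 6.24% of genes below it, and with the GC offsets the value was -0.09. Canx also had ratios without overlap, 1.11, 1.20 and 1.17 in wild type and 0.94, 1.03 and 0.99 in the mutant (-0.18 ± 0.10, adjusted p = 0.594, edgeR), and -0.03 with GC offsets. Its coding GC content was 45.2%. That of Pdia3 was 44.9% and that of Dnajb9 39.7%, and the ratios of both overlapped between the genotypes. The part of GC content in these differences was not tested.

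For the other 8 genes the ratios overlapped between the genotypes; over all genes 22.8% did not overlap. The differences were 0.08 ± 0.13 for Pdia6, 0.04 ± 0.14 for Herpud1, 0.02 ± 0.17 for Xbp1 and 0.02 ± 0.15 for Calr. Hspa5 was at -0.04 ± 0.14, Pdia4 at -0.05 ± 0.14, Pdia3 at -0.08 ± 0.11 and Dnajb9 at -0.08 ± 0.18. For Hspa5 the interval allows a fold between 0.790 and 1.19, and for Dnajb9 one between 0.720 and 1.24.

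The other genes of the secretory pathway were read in the same comparisons. In RNA none of 135 tested genes of the 10 lists passed, and 9 had an unadjusted p under 0.05, a smaller share than the 17.5% of all genes; DESeq2 and limma-voom called none. The smallest p was that of Prdx4, with 0.27 ± 0.07 (adjusted p = 0.0932, edgeR), followed by the translocon-associated Ssr1 with 0.18 ± 0.06 (adjusted p = 0.138, edgeR). All 8 ER prolyl isomerases had a positive RNA difference, with a median of 0.10; Ppic had 0.29 ± 0.11. Of 135 genes 91 were positive, with a median of 0.05.

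In footprints none of 136 passed in edgeR, 15 had an unadjusted p under 0.05 where 22.8% of all genes did, and limma-voom called none. DESeq2 called 3. These were Creld2, a stress-induced isomerase-like protein, with 0.38 ± 0.11 in edgeR (adjusted p = 0.114 in edgeR and 0.0463 in DESeq2), and the degradation genes Herpud2 (-0.34 ± 0.10; 0.111 and 0.0483) and Ubxn4 (-0.26 ± 0.08; 0.113 and 0.0492). Ddit3 had 0.65 ± 0.22 at a low level (adjusted p = 0.142, edgeR). In translational efficiency none of 136 passed in edgeR, DESeq2 or limma-voom, with 10 at an unadjusted p under 0.05 (9.84% of all genes); Dnajc10, a cofactor of BiP, had the smallest p with -0.25 ± 0.08.

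Genes with an ERSE in their promoter were also counted. Of the 37 such genes, with 5 of the 10 among them, 15 were tested in RNA and 17 in footprints. Of these, 13 and 12 had positive differences, with medians of 0.12 and 0.13, and none passed in edgeR. Over all genes tested 53.2% and 52.4% were positive, with medians of 0.01, and 0.388% and 0.253% passed. The 5 are among the genes tested, so these counts are not separate from those of the 10. Besides the 5, the pathway lists held Creld2, Derl3, Dnajc3 and Syvn1 with an ERSE, and Dnajb11 and Krtcap2 with an ERSE-II.

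Footprints before the start codon were examined next, because eIF3 acts at initiation, before the coding sequence is read. The counted 5′ UTRs were 73 bases (Pdia6) to 397 bases (Dnajb9) long. Dnajb9 has 3 upstream AUGs, at bases 31, 48 and 197 of the transcript, whose frames hold 6, 38 and 6 codons. Hspa5 has 1, at base 18 with a frame of 9 codons, and Xbp1 has 1, at base 217 with 18 codons. All 5 frames close before the main start, and the other 7 genes have none. The 3 AUGs of Dnajb9 and that of Hspa5 lie before the RefSeq start, in the first 258 and 120 bases of the counted transcripts, so a transcript that begins at the RefSeq start does not hold them. How much of the mRNA begins at either start was not measured, and coverage per base uses the whole annotated length.

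Counts of the 5′ UTR and of the coding sequence can share a read that spans the start codon. Such reads cannot reach the counted coding sequence, which leaves out the first 15 codons, and so the most that could be shared was bounded per library. In Pdia6 they could be all 5′ UTR footprints, in Xbp1 95.5% to 100%, and in Pdia4 90.4% to 100%. In Hspa5 they were at most 15.1% to 18.8%. In Dnajb9 the bound was 0, since no footprint was counted in the left-out ends of its coding sequence. Whether reads there were lost because they map to several places was not tested, and if they were, the bound does not hold.

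In wild type, Dnajb9 carried 18.4, 21.6 and 23.0 footprints in the 5′ UTR per 100 coding footprints, and Herpud1 18.1, 23.0 and 22.2. Hspa5 carried 10.9, 10.2 and 10.5. The other 7 genes had between 1.52 and 7.32. Per base, the 5′ UTR of Herpud1 was covered at 1.53 ± 0.19 times its coding sequence (SD, n = 3), above 63.1% of the 11106 genes compared, and that of Hspa5 at 0.743 ± 0.025, above 24.3%. The median over genes was 1.22. In Herpud1, up to 47.1% to 55.9% of the wild-type 5′ UTR footprints could span the start codon. Without them its ratio was 0.736, and the median over genes was not reduced in this way. The remaining 8 genes were at 0.041 (Xbp1) to 0.966 (Pdia4), so in 9 of the 10 genes the 5′ UTR was less densely covered than the median of 1.22. The same 9 genes were also below the median in wild-type RNA, which was 0.658. They ran there from 0.069 (Xbp1) to 0.572 (Calr), and Herpud1 was above it at 0.811 ± 0.242. The low footprint coverage is thus not separate from low RNA coverage of the annotated 5′ UTRs. In Xbp1 the annotated 5′ UTR was also little covered in RNA, at 0.069 ± 0.010 of its coding sequence, with 0.972% of genes below.

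In the mutant, 5′ UTR footprints were higher relative to coding footprints in Dnajb9 and Calr, which makes 2 of 10 genes called higher (edgeR, genotype by region), where 8.76% of genes were called higher. The footprint libraries differed as a whole: 5′ UTR footprints made up 14.3% to 14.4% of 5′ UTR and coding footprints in wild type and 17.2%, 14.7% and 16.8% in mutant pools 1, 2 and 3. The median log2 difference was 0.22 over all genes and 0.35 over the 10.

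Dnajb9 had 44.0, 25.8 and 37.2 5′ UTR footprints per 100 coding footprints in the mutant pools, each above every wild-type pool. The counts behind them were 99, 82 and 151 in the mutant and 325, 105 and 214 in wild type. The difference was 0.75 ± 0.20 on the log2 scale, a fold of 1.68 (1.25 to 2.27; adjusted p = 0.0339, edgeR). Calr had 6.96, 5.006 and 6.63 per 100 in the mutant and 4.39, 4.33 and 3.92 in wild type, also without overlap (0.55 ± 0.15, adjusted p = 0.0356, edgeR). Of the 5′ UTR footprints of Calr, up to 53.0% to 58.0% in wild type and 62.5% to 68.6% in the mutant could span the start codon, and those that could not numbered 1.65 to 2.07 per 100 in wild type and 1.68 to 2.49 in the mutant. Hspa5 was the third gene without overlap, at 13.4, 11.4 and 11.6 per 100 in the mutant; over all genes every mutant pool lay above every wild-type pool in 26.6%.

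The size of these differences is relative. With each region scaled to its own total, an alternative chosen after seeing the data that removes the shift shared by all genes, Dnajb9 was at 0.55 (adjusted p = 0.0729) and Calr at 0.34 (adjusted p = 0.0951) in edgeR, and none of the 10 passed, where 3.58% of genes were called higher. Both calls were lost when any 1 pool other than mutant pool 2 was left out, with an adjusted p of up to 0.206 in edgeR, and without mutant pool 2, 7 of the 10 and 27.6% of all genes were called higher. In the RNA libraries the same contrast gave -0.21 ± 0.25 for Dnajb9 and 0.01 ± 0.09 for Calr, and none of the 10 was called, where 0.0443% of genes were called higher. Xbp1 there had an unadjusted p of 0.0445 and was the 1 of the 10 with a p under 0.05; DESeq2 and limma-voom were not run on this contrast.

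Of the other 8, Xbp1 had the largest difference, 0.65 ± 0.31 (adjusted p = 0.188, edgeR), with 15, 12 and 39 footprints in the mutant 5′ UTR counts. Herpud1 had 0.48 ± 0.19, Pdia3 0.41 ± 0.18, Canx 0.28 ± 0.17, Hsp90b1 0.25 ± 0.19 and Hspa5 0.20 ± 0.13. Pdia6 and Pdia4, whose 5′ UTR footprints could nearly all span the start codon, were at 0.01 ± 0.14 and -0.04 ± 0.15. In the pathway lists, 18 of 132 genes tested were called higher, where 8.76% of all genes were. Among them were Ero1l, the oxidase that recharges disulfide isomerases (1.21 ± 0.20), Ssr2 (1.27 ± 0.22) and Sil1, an exchange factor of BiP (1.02 ± 0.21). This count is that of the main fit, which keeps the shift shared by all genes. With each region scaled to its own total, 3.58% of all genes were called higher. Srpr, a subunit of the signal recognition particle receptor, was called lower in the main fit (-0.67 ± 0.20), as were 32 of all 11106 genes.

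**Figure D5:**
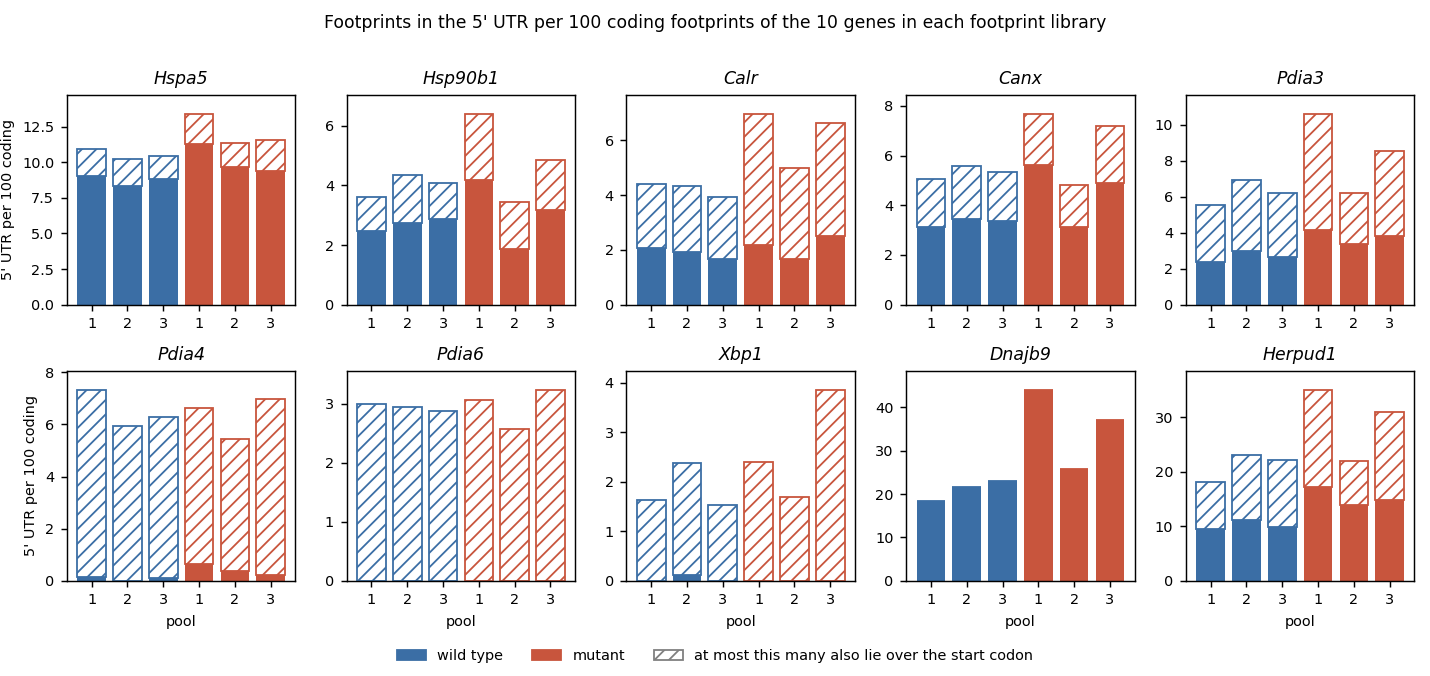
Footprints in the 5′ UTR per 100 coding footprints (y axis, from 0, a scale per gene) in the 6 footprint libraries (x axis, pools 1 to 3 of wild type in blue and of mutant in red); the hatched part is the most that could also span the start codon. Dnajb9 has no hatched part and lies between 18.4 and 23.0 in wild type and between 25.8 and 44.0 in the mutant, and Pdia6 is hatched throughout.

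Footprints after the stop codon were few in most of the 10 genes. In wild type they made up 0.21% ± 0.07 of coding and 3′ UTR footprints in Hspa5 and 1.35% ± 0.24 in Pdia6, with a median of 1.28% over the 12658 genes whose 3′ UTR has at least 100 bases. Xbp1 stood above: 8.02%, 7.99% and 7.58% in wild-type pools 1 to 3, from 257, 82 and 170 footprints, higher than 96.6% of genes. In the mutant pools Xbp1 had 5.10%, 8.34% and 6.74%, from 36, 70 and 79 footprints, which overlapped the wild type. In Hspa5 the share was 0.175%, 0.291% and 0.177% in wild type, from 162, 91 and 102 footprints, and 0.507%, 0.763% and 0.691% in the mutant, from 102, 161 and 216. It was the 1 gene of the 10 with every mutant pool above every wild-type pool, where 13.2% of genes were so, and no test was run on it. Over all these genes together the share was 1.79% to 1.88% in wild type and 1.77%, 3.51% and 2.04% in mutant pools 1 to 3, and the part of this in the Hspa5 values was not tested. Dnajb9 was next to Xbp1, at 4.203% ± 1.09 in wild type. In wild-type RNA the 3′ UTR shares of these genes were also the largest of the 10, at 65.8% in Dnajb9 and 59.2% in Xbp1. Their coding sequences are the shortest of the 10, at 669 and 804 bases. The share is not per length, and footprints that span the stop codon were not bounded. The part of these in the ranking was not tested. The annotated 3′ UTR of Xbp1 holds the tail of the longer frame shown above, and the deposited row does not say where along it the footprints lay.

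The counts along the coding sequence of Dnajb9 were uneven. Of 4133 coding footprints none lay only in the 60 bases left out at its ends, which are 8.97% of its coding length. In RNA 30 of 1152 reads of its whole coding sequence lay only in those ends. Among 10379 genes with over 1000 counted footprints, 112 had none in these ends. How reads that map to several places were treated is not stated, and their part in this was not tested.

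Across the 12 libraries, the genes outside the set whose profile was nearest to Hspa5 were Dnajc3, Hsph1, Cep72, Tti1 and Dnajb11, by the root-mean-square difference in log2 CPM centred within each assay, among 8154 genes with a mean of at least 20 CPM. The difference was 0.059 for Dnajc3 and 0.068 for Dnajb11. Within the set, Pdia4 (0.043) and Calr (0.050) were the 2 nearest of all genes, and Pdia3 (0.072), Pdia6 (0.074), Hsp90b1 (0.081), Canx (0.089) and Xbp1 (0.095) ranked 9 to 112. The 2 stress genes of lowest level were further away, with Herpud1 (0.159) at rank 3479 and Dnajb9 (0.242) at rank 7021. Low counts widen this measure, so for these 2 genes it cannot tell a different profile from sampling noise.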

How the data were processed

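The 10 genes and the gene lists were chosen with earlier results of these data known. Per the labels' protocols, footprints of 28 to 31 nt and poly(A) RNA fragments of 30 to 50 nt were sequenced. Per the submitters' processing notes, cutadapt, STAR, bedtools and mm10 were used; versions, strand and the handling of multi-mapping reads are not stated in the labels, notes or headers used here.

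The authors deposited raw counts per lane for each transcript and its parts; coding counts leave out the first 15 and last 5 codons, as the coordinates in the file show.

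Lanes and runs were summed. In 4 lanes of mutant footprint pool 1 counts were present on 3 chromosomes at most, and these were left out. Transcripts were matched to GENCODE vM21, the transcript of highest total was kept per symbol (22422 genes), and 0.328% of coding counts belonged to no gene. Only the transcripts counted were compared, so reads shared with other transcripts or near-identical genes cannot be assigned.

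RNA and footprints were tested over 6 libraries each, and translational efficiency over 12, with edgeR 4.0.16 (quasi-likelihood, TMM, filterByExpr with minimum count 10 and total 15, Benjamini-Hochberg over all genes tested, threshold 0.05) in R 4.3.3. SE were calculated back from the F statistic, and 95% intervals use the t distribution with the degrees of freedom of the test. DESeq2 1.42.0 and limma 3.58.1 (voom) were alternatives. CPM and RPKM use TMM-scaled library sizes, ratios per pool a prior of 0.5 CPM, and SD are over 3 pools. Counts of the 5′ UTR and coding sequence were tested as genotype by region with a term for the library. Tests were tried on simulated data. The depth bears on the low genes: Xbp1, Dnajb9 and Herpud1 had 15.6 to 67.4 CPM.

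The genes named from each list were drawn from those past the threshold (at most 6 by smallest p), otherwise from the 2 of smallest p. Only some of these are named, so a gene that is not named can still have been called. Both libraries of a pool share their cells, per the labels' protocols, and their deviations from the group mean correlated at 0.210 to 0.574 over the 6 pools. What same-numbered pools of the genotypes share is not given in the labels, and they were not paired in the main test. Promoters are RefSeq's. Offsets for coding GC content, the 5′ UTR contrast with each region scaled alone and that contrast in RNA were alternatives chosen after seeing the data. Tables were joined with pandas 2.3.3 and NumPy 2.4.6 under Python 3.11.15, and Matplotlib 3.10.9 drew the figures.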

Additional observations from a re-analysis of the deposited data

How the results depend on the processing

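The count of members called was 0 in RNA, footprints and translational efficiency under every alternative that kept all pools. Leaving out a pool gave 0 to 2 members in RNA (Hsp90b1 and Pdia4 without mutant pool 2), 0 to 1 in footprints (Pdia6 without mutant pool 2) and 0 in translational efficiency. The count of 10 in the wild-type footprint to RNA ratio held under all 10 alternatives. For the 5′ UTR contrast the count of 2 ranged from 0 to 7 when a pool was left out, and was 0 with each region scaled to its own total. Counts over all genes moved more: RNA calls went from 52 to 395 in DESeq2, 87 in limma-voom, 462 without the filter, 22 with the whole coding sequence, 86 in run 2 alone, 1 with all transcripts summed and 2 with GC offsets, and footprint calls from 34 to 820 in DESeq2, 130 in limma-voom, 243 without the filter, 59 with the whole coding sequence, 22 with all transcripts summed, 105 in run 2 alone and 9 with incomplete lanes. Leaving out a pool gave 1 to 1528 in RNA and 8 to 2333 in footprints, the highest without mutant pool 2. With the pool number as a block, calls were 196 in RNA and 38 in footprints, where the labels do not say whether the numbers pair the pools, and 113 in translational efficiency, and no call of a member changed. Same-numbered pools of the genotypes correlated at 0.06 to 0.11 in RNA and at -0.10 to -0.04 in footprints.

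Signs turned for differences that were not called. With incomplete lanes included, which hold 3 chromosomes at most, Hsp90b1 and Canx were at 0.31 and 0.23 in footprints and at 0.081 and 0.095 in translational efficiency. With GC offsets, footprints of Hsp90b1, Canx and Pdia3 were at 0.076, 0.057 and 0.096, and translational efficiency was at 0.059 for Hspa5, 0.073 for Pdia3, 0.022 for Pdia4, 0.18 for Dnajb9, -0.068 for Xbp1 and -0.0069 for Herpud1. With all transcripts summed, translational efficiency was at -0.0057 for Calr and -0.10 for Xbp1, and in run 2 alone at -0.025 for Xbp1. In the 5′ UTR contrast Pdia6 was at -0.0043 with the whole coding sequence and at -0.20 with each region scaled alone, where Hspa5 was at -0.0015. The cause was not tested.

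Over the 6 fits that leave out a pool, the median of the 10 ranged from -0.074 to -0.022 in translational efficiency and from 0.19 to 0.55 in the 5′ UTR contrast. RNA ranged from -0.14 to 0.051 for Herpud1, -0.039 to 0.15 for Calr and -0.0047 to 0.15 for Pdia3, and footprints of Pdia3 from -0.069 to 0.024. Translational efficiency ranged from -0.043 to 0.087 for Calr, -0.23 to 0.069 for Dnajb9, -0.087 to 0.0020 for Pdia4, -0.049 to 0.061 for Xbp1 and -0.073 to 0.13 for Herpud1. The 5′ UTR contrast ranged from -0.11 to 0.062 for Pdia4 and from -0.064 to 0.10 for Pdia6. With the whole coding sequence, levels per length moved by more than 1 SD in 5 of 10 genes in RNA and in 8 of 10 in footprints.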
